A study of Mus musculus with 6 samples.

Results

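The miRNAs described here are the mature arms of 4 mouse hairpins, mir-192, mir-194-1, mir-194-2 and mir-215, which lie in pairs at 2 places in the genome. They were chosen by name, and 7 of the 1966 mature miRNAs in the table belong to them: mmu-miR-192-5p, mmu-miR-192-3p, mmu-miR-194-5p, mmu-miR-194-1-3p, mmu-miR-194-2-3p, mmu-miR-215-5p and mmu-miR-215-3p. The row of miR-194-5p stands for both miR-194 hairpins, because its sequence is the same in each. Small RNA was sequenced from extracellular vesicles (EVs) of 2 sources, colon explants and bone marrow–derived dendritic cells (BMDCs), with 3 libraries each. All 6 libraries came from mice with floxed Rab27A (Rab27A fl/fl), and no Cre is named in the labels. Colon explants were kept in culture for 16 hours, and their EVs passed through an iodixanol gradient of which fraction 2 was sequenced. BMDCs were grown with GM-CSF for 7 days, and EVs of both sources were collected by differential centrifugation. The study's methods name exosome-depleted serum for the explant culture and complete medium, with no depletion stated, for BMDCs. The labels and the methods give the gradient for colon EVs, while another passage of the study names it for both sources. The source of the EVs and the culture, with its serum, cannot be told apart, nor can the gradient if it was used for colon EVs alone. The labels do not say whether replicates came from separate animals or cultures, so p-values measure only the spread between these libraries, which may be technical.

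A miRNA is cut out of a hairpin-shaped precursor as a short duplex of a 5′ arm (5p) and a 3′ arm (3p), and usually one of them is kept while the other is degraded. Bases 2 to 8 of the mature strand, the seed, do most of the pairing with target mRNAs. miR-192 and miR-215 are a family with a common seed, miR-194 has a different one, and all are known as abundant miRNAs of the intestinal epithelium, with miR-192 and miR-194 also abundant in liver and kidney. Their genes are known to respond to the transcription factor p53 in human cells.

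The 5p arms are printed first because they carry most of the counts, and because they show which members share a seed. The sequences are those of RefSeq for GRCm38.p6, where all 7 members were found by name, with the seed in capitals, and every hairpin lies on the plus strand.
mmu-miR-192-5p: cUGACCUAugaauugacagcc
mmu-miR-215-5p: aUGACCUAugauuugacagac
mmu-miR-194-5p: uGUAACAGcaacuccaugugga
mmu-miR-192-3p: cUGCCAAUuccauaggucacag
mmu-miR-215-3p: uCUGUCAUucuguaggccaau
mmu-miR-194-1-3p: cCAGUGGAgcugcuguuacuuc
mmu-miR-194-2-3p: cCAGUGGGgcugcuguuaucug
Counted from 1 at the 5′ end, miR-215-5p differed from miR-192-5p by C1A, A12U and C20A, so 18 of 21 bases and the whole seed were the same. No other mature mouse miRNA in the RefSeq table had the seed UGACCUA. The miR-194 3p arms differed from each other by A8G, C19U, U20C and C22G, with the base of miR-194-1-3p given first, which left 18 of 22 bases the same. The first of these changes falls on the last base of the seed, so the 3p arms of the miR-194 hairpins have different seeds although their 5p arms are identical.

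The hairpins are printed with the mature arms in capitals, because they show which arm of each duplex the counts below refer to.
Mir194-2, chr19:6264643-6264728: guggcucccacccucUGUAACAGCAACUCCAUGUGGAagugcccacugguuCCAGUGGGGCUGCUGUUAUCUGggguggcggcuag
Mir192, chr19:6264844-6264932: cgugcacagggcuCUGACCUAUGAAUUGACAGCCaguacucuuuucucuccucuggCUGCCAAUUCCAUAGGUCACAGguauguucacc
Mir194-1, chr1:185313319-185313385: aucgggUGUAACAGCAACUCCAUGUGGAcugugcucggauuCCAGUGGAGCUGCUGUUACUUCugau
Mir215, chr1:185313581-185313692: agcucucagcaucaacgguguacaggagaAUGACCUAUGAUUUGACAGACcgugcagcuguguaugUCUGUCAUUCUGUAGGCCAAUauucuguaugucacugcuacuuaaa
At both loci a miR-194 hairpin came first on the strand and its partner followed. On chromosome 19, 115 bases separated Mir194-2 from Mir192, and the pair spanned 290 bases. On chromosome 1, 195 bases separated Mir194-1 from Mir215, and the pair spanned 374 bases. In the GENCODE vM21 annotation of GRCm38, the chromosome 19 pair lay between genes. The protein-coding gene Atg2a ended 2308 bases before Mir194-2 on the same strand. The lincRNA Gm14963 lay on the opposite strand, with its 3′ end 3863 bases after Mir192. The chromosome 1 pair lay within the noncoding transcript of 2010103J01Rik on the same strand, Mir194-1 in its intron and Mir215 in its exon 2. Both hairpins of that pair also lay opposite an intron of Iars2, which encodes mitochondrial isoleucyl-tRNA synthetase. The arrangement of the hairpins is drawn to scale in the map of the loci.

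**Figure D1:**
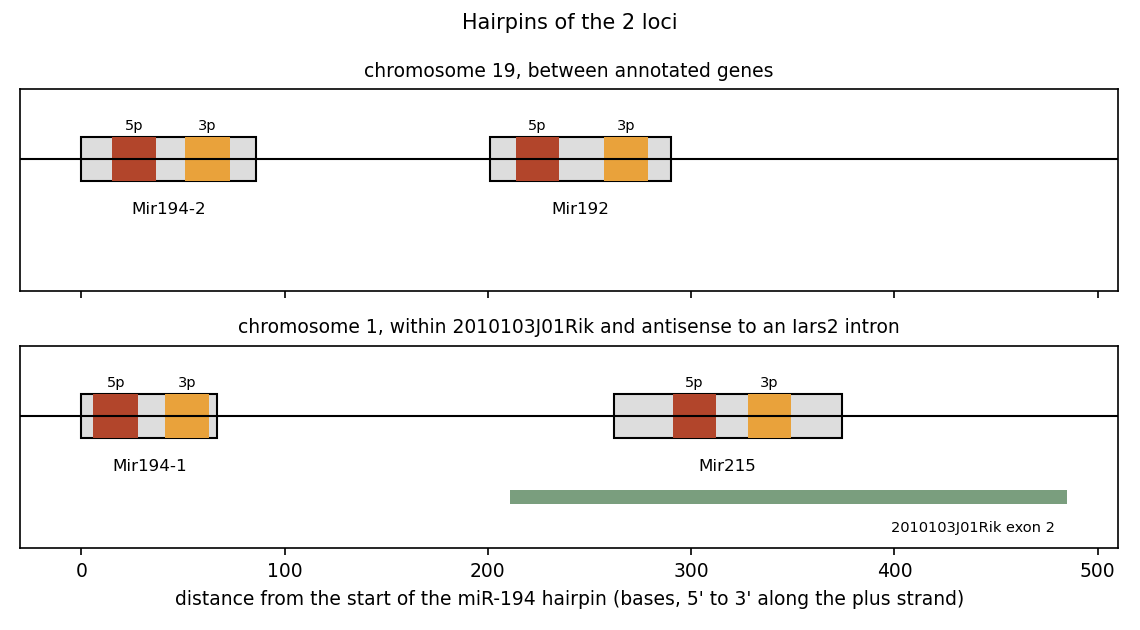
The 2 loci, with distance in bases from the start of the miR-194 hairpin on the x axis. Grey boxes are hairpins, red boxes 5p arms, orange boxes 3p arms and the green box exon 2 of 2010103J01Rik. A miR-194 hairpin comes first at each locus, with 115 bases to Mir192 and 195 bases to Mir215.

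Total counts ran from 173358 to 645303 in the colon EV libraries and from 83997 to 178454 in the BMDC EV libraries, so 3 counts, the floor used here, corresponded to 4.65 to 17.3 CPM (the count scaled to the same library total) in the former and 16.8 to 35.7 CPM in the latter. Floors and counting intervals cover counting error only. The sources were set beside lists of marker miRNAs, which were chosen with earlier results of these data known. The comparison is therefore a description and not an independent check of the labels. A list of 8 epithelial miRNAs summed to 132754 to 162052 CPM in colon EVs and 2371 to 5139 CPM in BMDC EVs. A list of 7 haematopoietic miRNAs summed to 5136 to 11901 CPM in colon EVs and 306619 to 323239 CPM in BMDC EVs. Each sum was higher in its own source, while neither list was at 0 in the other. Of the 8 epithelial miRNAs, 7 were lower in BMDC EVs and miR-31-5p was higher.

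miR-192-5p was the most abundant member in every library. The colon EV libraries, in the order of replicates 1, 2 and 3, held 64048.96, 14386.93 and 11821.12 counts of it, or 9.93%, 6.18% and 6.82% of all counts, and the BMDC EV libraries, in the same order, 264.61, 174.5 and 201.94 counts, or 0.209%, 0.208% and 0.113%. Colon EV replicate 1 was the highest and BMDC EV replicate 3 the lowest, and the sources did not overlap. By level it ranked 2, 3 and 3 among all miRNAs of the colon EV libraries and 47, 49 and 64 among those of the BMDC EV libraries. Its mean was 76425 ± 20024 CPM (SD, n = 3) in colon EVs and 1765 ± 549 CPM (SD, n = 3) in BMDC EVs. Its log2 fold change, BMDC EVs minus colon EVs after TMM scaling, was −5.94 with a standard error (SE) of 0.341, a level 61.3-fold lower in BMDC EVs (edgeR quasi-likelihood test, Benjamini-Hochberg adjusted p = 2.49e-11). Without BMDC EV replicate 3 it was −5.27, and with library size alone in place of TMM −5.44. Every SE given here is approximate, since it was worked back from the fold change and the F statistic of its test.

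miR-194-5p, the product of both loci, was the next in order in every library. The colon EV libraries held 22360.51, 5704.72 and 4406.44 counts of it, or 3.47%, 2.45% and 2.54% of the total. The BMDC EV libraries held 82.5, 80.83 and 64.75 counts, or 0.0651%, 0.0962% and 0.0363%. Its ranks were 9, 10 and 11 in colon EVs and 85, 68 and 100 in BMDC EVs, with no overlap of the sources. The means were 28196 ± 5609 CPM and 659 ± 300 CPM (SD, n = 3 each), and the log2 fold change was −5.94 (SE 0.351), 61.5-fold lower in BMDC EVs (edgeR quasi-likelihood test, Benjamini-Hochberg adjusted p = 2.84e-11), and −5.22 without BMDC EV replicate 3. The files hold 1 row for this arm, so its counts cannot be divided between chromosome 1 and chromosome 19.

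miR-215-5p, which shares its seed with miR-192-5p, was the third 5p arm. Its counts were 4160.65, 932.33 and 795 in colon EVs, ranks 28, 42 and 35, and 13, 9 and 9 in BMDC EVs, ranks 184, 183 and 230. The means were 5014 ± 1275 CPM in colon EVs and 86.7 ± 31.5 CPM in BMDC EVs (SD, n = 3 each), so even the lowest colon EV library, at 4007 CPM, was far above the highest BMDC EV library, at 107 CPM. The log2 fold change of −6.41 (SE 0.351), 84.8-fold lower in BMDC EVs, placed it at position 4 from the lowest among the 220 miRNAs tested, with miR-194-5p at position 6 and miR-192-5p at position 7 (edgeR quasi-likelihood test, Benjamini-Hochberg adjusted p = 2.05e-11). Without BMDC EV replicate 3 the change was −5.65. Only 1 BMDC EV library reached 10 counts, so miR-215-5p entered the test through the colon EV libraries, where it was high. Its position and p-value are therefore a description.

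Under each hairpin name, the 3p arms had fewer counts than the 5p arm in every library. miR-194-2-3p had 300.5, 151 and 103.33 counts in colon EVs (466, 649 and 596 CPM) and 6.5, 12 and 5 counts in BMDC EVs (51.3, 143 and 28.0 CPM). BMDC EV replicate 2 was the highest of its source, and still below every colon EV library. Its log2 fold change was −3.59 (SE 0.470), 12.1-fold lower in BMDC EVs (edgeR quasi-likelihood test, Benjamini-Hochberg adjusted p = 1.43e-06), and it took position 37 from the lowest. Its size rested on single BMDC EV libraries, with −2.74 without BMDC EV replicate 3 and −4.43 without BMDC EV replicate 2 with the filter set to 2 libraries. Only 1 BMDC EV library reached 10 counts of miR-194-2-3p, so its position and p-value are a description too.

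The other 3p arms were at or near the floor in BMDC EVs, and for them the counts summed over the 3 libraries of a source are compared. These ratios use total counts without TMM scaling, unlike the fold changes above. miR-192-3p had 219.83, 57.5 and 41.5 counts in colon EVs and 1 count in each BMDC EV library. The 320 counts of colon EVs against 3 of BMDC EVs made its share of the library 39.5 times higher in colon EVs, with a 95% counting interval of 13.4 to 193. miR-215-3p had 523.5, 174.33 and 73 counts in colon EVs and 0, 0 and 4 in BMDC EVs, a share 71.4 times higher in colon EVs (interval 27.8 to 263). miR-194-1-3p, which comes from the chromosome 1 locus alone, had 67.33, 20 and 10 counts in colon EVs and 0 in all the BMDC EV libraries, so it was at least 11.97-fold higher in colon EVs when 3 counts over the group are taken as the floor. In none of these arms did the sources overlap.

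**Figure D2:**
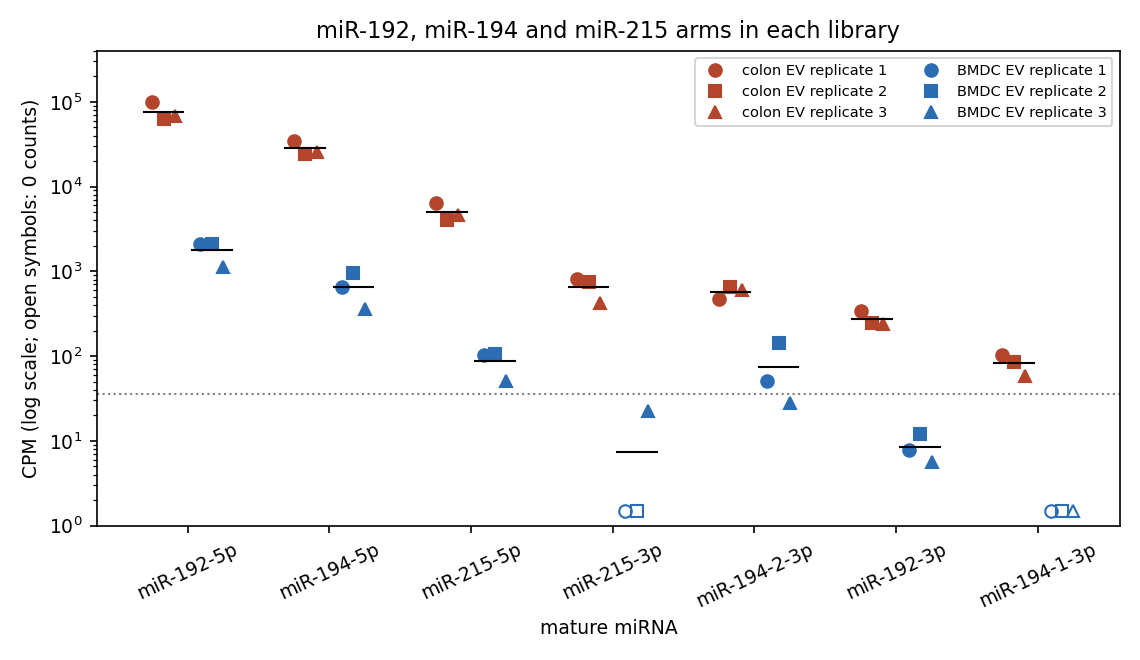
Level of each member in CPM, on a log axis, in 3 colon EV libraries (red) and 3 BMDC EV libraries (blue), with circles, squares and triangles for replicates 1, 2 and 3, open symbols near the axis for libraries at 0 counts and black lines for means. The dotted line is 35.7 CPM, the level of 3 counts in the smallest library. For each of the 7 members the colon EV libraries lie above the BMDC EV libraries.

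Within colon EVs the order of mean levels was miR-192-5p, miR-194-5p, miR-215-5p, miR-215-3p (661 ± 210 CPM), miR-194-2-3p (570 ± 94.3 CPM), miR-192-3p (276 ± 56.4 CPM) and miR-194-1-3p (82.7 ± 23.5 CPM, SD and n = 3 throughout). The neighbours miR-215-3p and miR-194-2-3p overlapped between libraries, with 421 to 811 CPM against 466 to 649 CPM, and did not differ beyond their spread. In BMDC EVs the order was miR-192-5p, miR-194-5p, miR-215-5p and miR-194-2-3p, of which the last overlapped with miR-215-5p (28.0 to 143 CPM against 50.4 to 107 CPM), and the rest lay at or under the floor of the smallest library.

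All 7 members were called lower in BMDC EVs by the edgeR quasi-likelihood test. In the same test, 76.8% of the 220 miRNAs tested were called in either direction and 36.4% were called lower in BMDC EVs. All 7 also had colon EV libraries above all BMDC EV libraries, as 31.8% of the tested miRNAs did. These counts are a description, since 5 members reached the minimum of 10 counts in 3 libraries only with the colon EV libraries, and only miR-192-5p and miR-194-5p had 10 counts or more in all 6. The median log2 fold change of the members was −5.94, and that of all tested miRNAs 0.19. Fewer EVs of one cell type in a preparation and less of a miRNA per EV cannot be told apart in these bulk libraries.

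**Figure D3:**
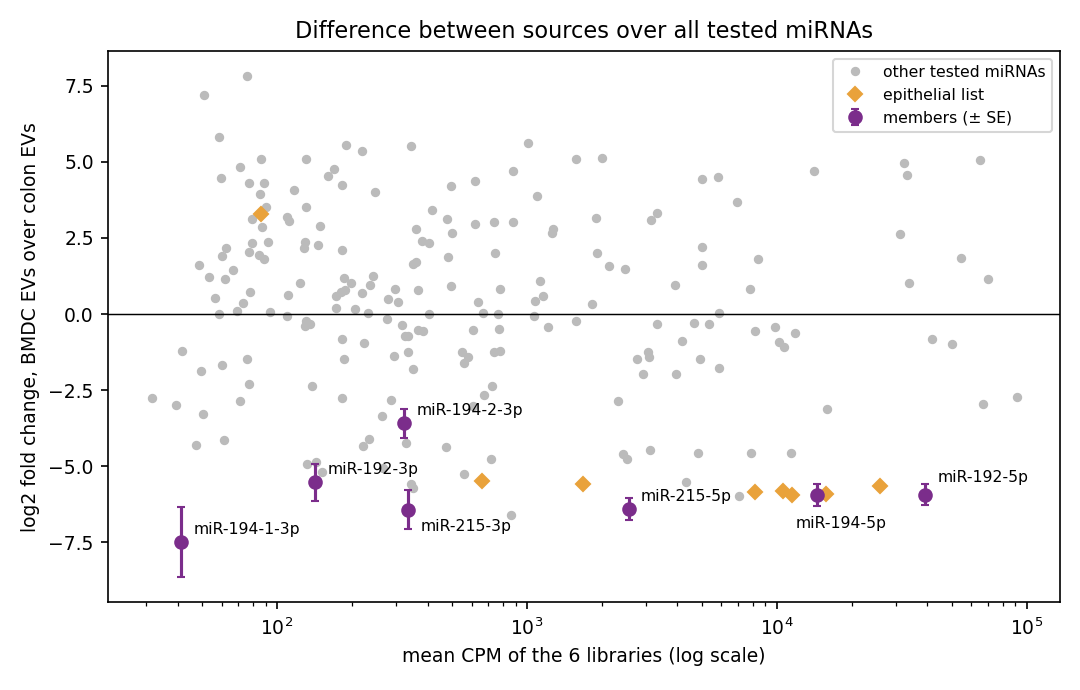
Log2 fold change, BMDC EVs minus colon EVs, against mean CPM on a log axis for the 220 tested miRNAs, with members in purple (bars are the approximate SE), the epithelial list in orange and all others in grey. The 5p members lie near −6 at high levels and miR-194-2-3p at −3.59. The fitted points of miR-192-3p, miR-194-1-3p and miR-215-3p depend on the prior count, because their BMDC EV counts are at or near 0.

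Summed, the members held 14.2%, 9.21% and 9.95% of all counts in colon EV replicates 1, 2 and 3, a mean of 11.1% ± 2.7 (SD, n = 3). In BMDC EVs they held 0.290%, 0.330% and 0.160%, a mean of 0.260% ± 0.0889 (SD, n = 3). The groups did not overlap and the share was 44.0-fold lower in BMDC EVs, with an exact two-sided permutation p = 0.1, which is the smallest that 3 libraries against 3 can give and cannot pass 0.05. The arms made at the miR-192 locus alone (miR-192-5p, miR-192-3p and miR-194-2-3p) held 7.73% ± 2.00 of colon EV counts. Those made at the miR-215 locus alone (miR-215-5p, miR-215-3p and miR-194-1-3p) held 0.576% ± 0.140, again over 3 libraries. In BMDC EVs the corresponding shares were 0.185% ± 0.0593 and 0.00942% ± 0.00186, so the miR-192 locus gave the larger part of the counts that can be placed in both sources.

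The most abundant members made up similar parts of the group in both sources. miR-192-5p made up 69.9%, 67.1% and 68.5% of the members' counts in colon EVs and 72.0%, 62.9% and 70.7% in BMDC EVs. miR-194-5p made up 24.4%, 26.6% and 25.5% in colon EVs and 22.4%, 29.1% and 22.7% in BMDC EVs. For both miRNAs the sources overlapped, although the total share of the members differed by 44.0-fold. miR-215-5p made up 4.54%, 4.35% and 4.61% in colon EVs and 3.54%, 3.25% and 3.15% in BMDC EVs, and miR-194-2-3p 0.328%, 0.705% and 0.599% in colon EVs and 1.77%, 4.33% and 1.75% in BMDC EVs. These were apart between the sources, the former higher in colon EVs and the latter in BMDC EVs.

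The ratio of miR-194-5p to miR-192-5p compares the arm made at both loci with the main arm of one of them. It was 34.9%, 39.7% and 37.3% in colon EVs and 31.2%, 46.3% and 32.1% in BMDC EVs. The BMDC EV libraries spread on both sides of the colon EV libraries, and no difference was detectable (log2 difference −0.05, exact two-sided permutation p = 0.9, Benjamini-Hochberg adjusted p = 0.9 over the 6 exact tests made). From the counts summed over libraries, the ratio in BMDC EVs was 0.989 times that in colon EVs, with a 95% counting interval of 0.846 to 1.15. The sign of this small difference changed when either BMDC EV replicate 1 or BMDC EV replicate 3 was left out, to log2 differences of 0.06 and 0.03, and with a pseudocount of 5, to 0.01.

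The ratio of miR-215-5p to miR-192-5p sets the main arms of the chromosome 1 and chromosome 19 loci against each other. It was 6.50%, 6.48% and 6.73% in colon EVs, a mean of 6.57% ± 0.137, and 4.91%, 5.16% and 4.46% in BMDC EVs, a mean of 4.84% ± 0.356 (SD, n = 3 each). All colon EV libraries were higher, with a log2 difference of −0.38 (exact two-sided permutation p = 0.1, the smallest possible, and Benjamini-Hochberg adjusted p = 0.15 over 6 tests). This rests on 31 counts of miR-215-5p in BMDC EVs, and the ratio from summed counts, 0.741 times that of colon EVs, had an interval of 0.499 to 1.06, which holds 1. With a pseudocount of 5 in place of 0.5 the direction turned, to a log2 difference of 0.10. Between the miR-194 3p arms, the only direct comparison of the miR-194 hairpins, miR-194-1-3p was 22.4%, 13.2% and 9.68% of miR-194-2-3p in colon EVs, so the chromosome 19 hairpin gave more of the 3p product in every colon EV library. In BMDC EVs it was 0% of 23 counts of miR-194-2-3p, for which no difference can be sized.

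**Figure D4:**
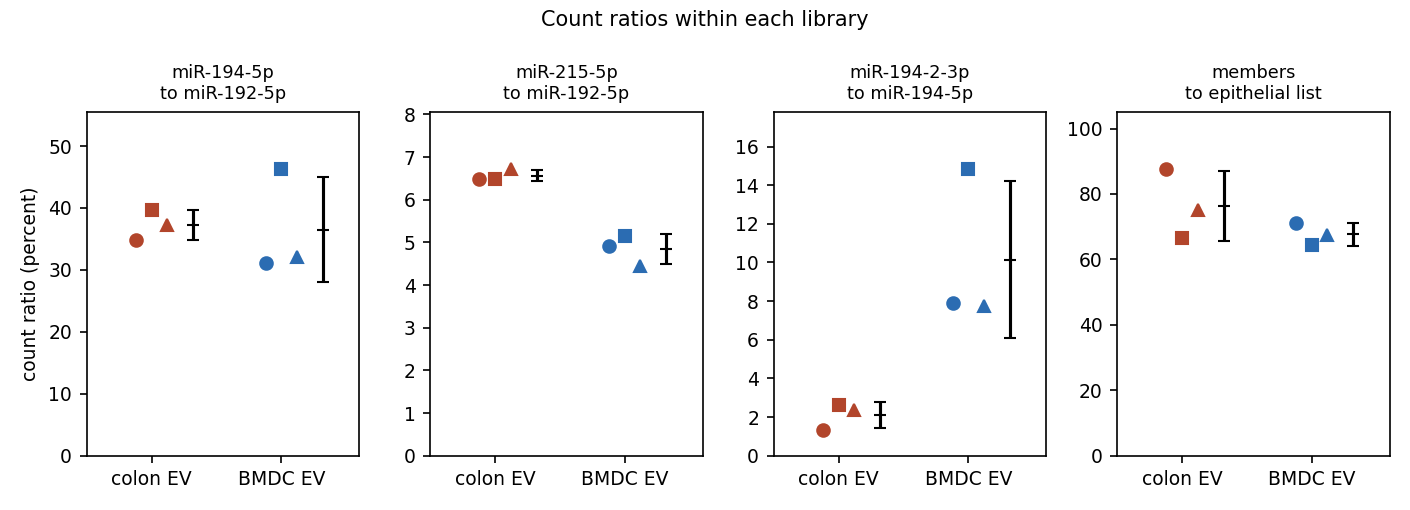
Ratios between members in percent, by library, for colon EVs (red) and BMDC EVs (blue), with circles, squares and triangles for replicates 1, 2 and 3 and black dashes and bars for mean ± SD. The ratio of miR-215-5p to miR-192-5p is 6.48% to 6.73% in colon EVs and 4.46% to 5.16% in BMDC EVs, and that of miR-194-2-3p to miR-194-5p is higher in every BMDC EV library, while those of miR-194-5p to miR-192-5p and of the members to the epithelial list overlap between the sources.

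Most counts of every member hairpin came from the 5p arm. Of the counts of miR-192, the 5p arm held 99.66%, 99.60% and 99.65% in colon EVs and 99.6%, 99.4% and 99.5% in BMDC EVs. The 5p arm of miR-194 held 98.4%, 97.1% and 97.5% in colon EVs and 92.7%, 87.1% and 92.8% in BMDC EVs. For miR-215 it held 88.8%, 84.2% and 91.6% in colon EVs, whereas the BMDC EV values of 100%, 100% and 69.2% rest on 13, 9 and 13 counts and are not precise. Over the 40 hairpin names with both arms tested, the median 5p share was 35.4% in colon EVs and 40.9% in BMDC EVs, so all these hairpins lay well to the 5p side of the middle of the table.

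Whether a hairpin used its arms in other proportions in the 2 sources was tested over the same 40 names, of which 20.0% were called. miR-194 was among them (edgeR diffSpliceDGE quasi-likelihood test, Benjamini-Hochberg adjusted p = 0.00816). miR-192 (adjusted p = 0.846) and miR-215 (adjusted p = 0.940) were not called in that edgeR test. Their 3p arms and miR-194-1-3p entered it through colon EV libraries alone, with 10 counts reached in no BMDC EV library. With so few BMDC EV counts, the test cannot decide on the arm use of miR-192 and miR-215. Both miR-194 hairpins stood under 1 name, so shifts in arm use and in the share of each hairpin cannot be told apart. The arm that moved was miR-194-2-3p, whose log2 change was 2.23 above that fitted over all miR-194 arms, itself included. This arm reached 10 counts in only 1 BMDC EV library, so it too passed the filter only with the colon EV libraries. Set against miR-194-5p, it was 1.34%, 2.65% and 2.34% in colon EVs and 7.88%, 14.8% and 7.72% in BMDC EVs, without overlap. With a pseudocount of 0.5 added to the counts, the ratio was 5.06-fold higher in BMDC EVs (exact two-sided permutation p = 0.1, the smallest possible, Benjamini-Hochberg adjusted p = 0.15 over 6 tests). In summed counts the ratio was 5.91 times higher in BMDC EVs, with a counting interval of 3.64 to 9.18, from 23 counts of miR-194-2-3p. Without BMDC EV replicate 2, which has 12 of those counts, the edgeR arm test gave a relative log2 change of 1.82 and an adjusted p = 0.0584, which is no longer past the threshold. It also missed the threshold without colon EV replicate 1 when the filter was set to 2 libraries (edgeR adjusted p = 0.0686).

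For the arms that were not called, the counts set wide limits. The ratio of miR-192-3p to miR-192-5p in BMDC EVs was 1.32 times that in colon EVs, with an interval of 0.270 to 3.91. The ratio of miR-215-3p to miR-215-5p was 0.985 times, with an interval of 0.252 to 2.80. Both intervals hold 1, and whether these hairpins differed from miR-194 was not tested.

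Most miRNAs of the epithelial list were also lower in BMDC EVs. Of its 8 miRNAs, 7 were called lower and 1 higher, with a median log2 fold change of −5.73, beside 36.4% called lower among all miRNAs tested. The miR-200 family, which restrains epithelial-to-mesenchymal transition, gave −5.92 for miR-200a-3p, −5.93 for miR-200b-3p, −5.65 for miR-200c-3p, −5.85 for miR-141-3p and −5.80 for miR-429-3p. miR-375-3p, known from endocrine cells, gave −5.48, and miR-203-3p, known from skin epithelium, −5.58. The exception was miR-31-5p, with 3, 3 and 4 counts in colon EVs and 22, 20 and 12 in BMDC EVs, which gave 3.29 (SE 0.654, edgeR quasi-likelihood test, Benjamini-Hochberg adjusted p = 0.00017).

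The summed counts of the members were 87.7%, 66.4% and 75.0% of those of the epithelial list in colon EVs and 71.1%, 64.2% and 67.5% in BMDC EVs. The sources overlapped and no difference was detectable (log2 difference −0.17, exact two-sided permutation p = 0.3, Benjamini-Hochberg adjusted p = 0.36 over 6 tests). The epithelial list itself held 0.407%, 0.514% and 0.237% of BMDC EV counts, highest in replicate 2 and lowest in replicate 3, the order that the members also had. The total counts of these libraries ran in the reverse order, from 83997 in replicate 2 to 178454 in replicate 3. An even count in all of them would therefore give the same order of shares. The part of epithelial miRNA in the members' BMDC EV level was not tested.

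Lists of other cell types moved in their own ways. All 7 haematopoietic miRNAs were called higher in BMDC EVs, with a median of 4.58, beside 89 called higher among all 220 miRNAs tested. Of 5 muscle and mesenchyme miRNAs 2 were tested, and both were lower in BMDC EVs, miR-143-3p by −4.76 and miR-199a-3p by −2.35. miR-122-5p is the defining miRNA of hepatocytes, which also hold much miR-192 and miR-194. It had 46, 25 and 24 counts in colon EVs and 101.53, 62.5 and 101.67 in BMDC EVs. Its change of 2.32 on the log2 scale had the opposite direction to the members. Whether liver miRNA had a part in these levels was not tested. The red cell list of 2 miRNAs had none tested, with a summed level of 0 to 51.9 CPM in colon EVs and 13.1 to 35.7 CPM in BMDC EVs.

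The miR-34 family was taken as a set of other miRNAs known to be induced by p53. Of its 6 arms 1 was tested. miR-34a-5p had 230.75, 123 and 107 counts in colon EVs and 825.81, 474 and 924.73 in BMDC EVs, with all BMDC EV libraries above all colon EV libraries in CPM. Its log2 fold change was 3.10 (SE 0.233, edgeR quasi-likelihood test, Benjamini-Hochberg adjusted p = 9.08e-10), opposite to that of the members. Whether p53 had a part in any of these levels was not tested.

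Among 213 tested miRNAs that are no member, the 5 whose log2 CPM over the 6 libraries was most like that of the summed members were miR-429-3p, miR-200a-3p, miR-141-3p, miR-196b-5p and miR-30a-5p. Their Pearson correlations ran from 0.998 for miR-30a-5p to over 0.999 for miR-429-3p. The first 3 belong to the miR-200 family, whereas miR-196b-5p, from a Hox gene cluster, had a log2 fold change of −5.53 and miR-30a-5p one of −4.58. These values describe 6 points that fall into 2 sources, and 45 of the 213 had a correlation of at least 0.95.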

How the data were processed

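Small RNA libraries of colon explant EVs and BMDC EVs (3 each) were prepared with a QIAseq kit for miRNAs. The values deposited by the authors are estimated counts for each mature miRNA, without normalization, and 23 of the 42 member values were not whole. Reads that match several miRNAs are therefore uncertain. The submitters' processing notes name GRCm38 (mm10), STAR 2.7.6a, featureCounts 1.6.3 and DESeq2 1.30.1, without roles or settings. The miRNA annotation and the use of molecular identifiers are not given in the sources used here.

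Groups and replicates were taken from the labels, with 0 columns unmapped. Counts were rounded, and the 220 miRNAs that reached 10 counts in 3 or more libraries were tested in edgeR 4.0.16 (R 4.3.3) with TMM and the quasi-likelihood test, p-values being adjusted by the Benjamini-Hochberg method over all of them. CPM and shares used the total count. Arm usage was tested with diffSpliceDGE, with both miR-194 hairpins under 1 name. Ratios were compared as log2 values (pseudocount 0.5) by exact permutation. On simulated counts, 61 of 61 changed miRNAs were recovered and 4 unchanged ones were called, and of 44 hairpins 9 of 9 shifted and 2 unshifted ones were called. The simulated fold changes were smaller than that of any member, and a smaller part of the miRNAs was changed than was called in the data. Simulated levels started from the mean of both sources, so the simulation does not show how the tests behave for arms with few BMDC EV counts. Replicates of a source correlated at 0.920 to 0.980 (log2 CPM), and none were duplicates. The named miRNAs are the members, the marker lists and the 5 nearest in pattern. Members and lists were chosen with earlier results of these data known. RefSeq names matched 1675 of the 1966 rows. Same-numbered replicates had deviations correlated at −0.145 to −0.0596, so the numbers were not used as pairs. DESeq2 1.42.0, limma 3.58.1 with voom, other scalings, filters, pseudocounts, unrounded counts and left-out libraries were tried as alternatives. Figures were drawn with matplotlib 3.10.9.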

Additional observations from a re-analysis of the deposited data

How the results depend on the processing

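Under all alternatives run, the log2 fold changes stayed negative and called for miR-192-5p (−6.49 to −5.27), miR-194-5p (−6.48 to −5.22), miR-215-5p (−6.94 to −5.65) and, where tested, miR-194-2-3p (−4.43 to −2.74), with the smallest changes without BMDC EV replicate 3. The median of all tested miRNAs moved with the scaling, from 0.19 to 0.06 with DESeq2 size factors, 0.39 with the upper quartile and 0.64 with library size alone. With library size alone the changes were −5.44 for miR-192-5p, −5.46 for miR-194-5p, −5.93 for miR-215-5p and −3.13 for miR-194-2-3p. The 7 members called became 3 when a mean normalized count of 100 was also required, since only 3 then entered the test. Leaving out 1 library gave 4 to 7, with 4 without any 1 of the colon EV libraries, because only 4 then passed the filter on 3 libraries. All 7 were called again when it was set to 2 libraries, an alternative chosen after seeing the data, as were that filter for arms and unrounded counts. The miR-194 arm call was present or lost, 1 or 0, across left-out libraries. With a pseudocount of 5, the log2 differences reversed to 0.10 for the ratio of miR-215-5p to miR-192-5p, to 0.01 (0.00585) for miR-194-5p to miR-192-5p and to 1.2 for miR-194-1-3p to miR-194-2-3p. A pseudocount of 5 is large beside the BMDC EV counts of 13, 9 and 9 for miR-215-5p and 0 for miR-194-1-3p. Added to both sides of a ratio, it pulls the ratio towards equality. Left-out libraries moved the ratio of miR-194-5p to miR-192-5p from −0.23 to 0.06 (0.0559). With the replicate number as a block, 7 members were called, no call of a member or of its arm usage changed, and over all tested miRNAs 80 lower and 89 higher calls became 78 and 86. Paired exact tests cannot go below p = 0.25. Depth limits the 3p arms and miR-215-5p in BMDC EVs, with 31 counts or fewer over 3 libraries.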
